A study of Mus musculus with 23 samples.

Results

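The collagen genes were read from a mouse array experiment on plasticizers in TM4 cells. A gene was a member when its symbol was Col, a number, the letter a and a number, and nothing else, and when the RefSeq transcript of a probe belonged to it. The RefSeq table held 44 such symbols, and 42 of them were matched to 61 probes, out of 20145 named genes and 55681 non-control probes on the array. Col6a3 and Col12a1 were not matched. The 42 genes were divided by the assembly their chains form into 11 fibrillar genes (types I, II, III, V, XI, XXIV and XXVII), 6 basement membrane genes (type IV) and 25 others.

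A collagen is built of alpha chains, each from its own gene, that wind around each other into a helix. Fibrillar collagens pack into fibrils that resist tension, whereas type IV chains join into the sheet-like network of basement membranes, and the remaining types decorate fibrils, link them to other structures or form networks of their own. In the testis, Sertoli cells stand on the basement membrane of the seminiferous tubule, which is rich in type IV collagen and laminin and is laid down together with the peritubular myoid cells outside it.

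TM4 is an immortalized Sertoli cell line of mouse origin, and cells in all groups received 1% DMSO for 48 hr. The groups were DMSO alone and 100 µM of MEHP (mono(2-ethylhexyl) phthalate), DINCH (a diisononyl ester of cyclohexane dicarboxylic acid), DOM (dioctyl maleate), BDB (butanediol dibenzoate) or DOS (dioctyl succinate), with 4 arrays per group and 3 for DOS. A level below is the log2 intensity of a probe minus the 75th percentile of its array, so 0 is the 75th percentile and a difference of 1 is a change by a factor of 2. Each compound was compared with the same 4 DMSO arrays, so chance deviations of those arrays enter all 5 comparisons.

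On each array 43.4% to 52.2% of the spots exceeded background well and 0 were saturated, and precision is set by how many arrays there were. They came from 3 slides, on which DOM and DOS shared the slide rows of DMSO, whereas MEHP, DINCH and BDB lay in other rows, and for these 3 compounds the row and the treatment cannot be told apart. Of 15 Sertoli cell markers, 9 were well above background on all 4 DMSO arrays, among them Gata4, Sox9 and Dmrt1, but Wt1, the follicle-stimulating hormone receptor gene Fshr and the tight junction gene Cldn11 were so on 0 arrays. RNA of whole cultures was measured, so fewer cells of a type and less RNA per cell cannot be told apart.

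The arrays numbered replicate 1 stood apart for the collagens. Of the 24 collagen genes tested in at least 1 comparison with DMSO, replicate 1 was the lowest array of its group for 18 genes in DMSO, 19 in MEHP, 18 in DINCH, 15 in DOM and 13 in BDB, and for 18 among the 3 DOS arrays. Over all tested probes, replicate 1 was the lowest array for 31.0%, 27.7%, 22.2%, 29.1%, 25.5% and 41.3% in the same order. Col1a1, Col3a1, Col5a1, Col6a1, Col6a2 and Col16a1 were lowest on replicate 1 in all 6 groups. Slide 1 held all 6 of these arrays, and also replicate 2 of MEHP and of DOM, on which these 6 genes were not low. The results below are therefore also given without replicate 1 of both groups, a setting chosen after the values were seen, wherever that changed a call.

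**Figure D1:**
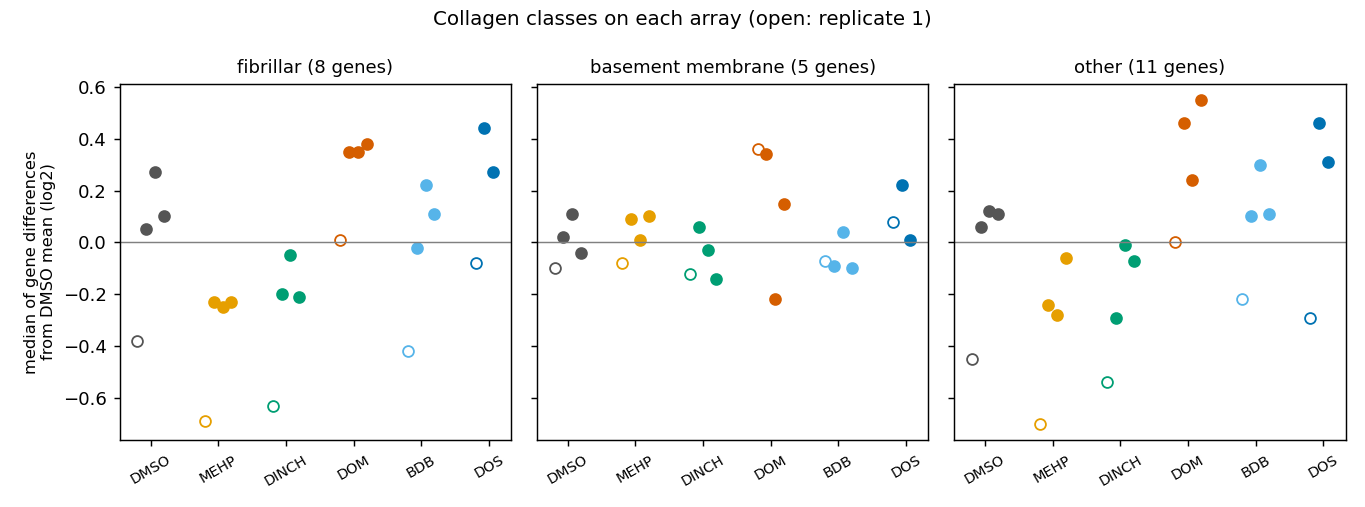
Median difference of the tested collagen genes of each class from the mean of the DMSO arrays (vertical axis, log2) on each of the 23 arrays, by group; open circles are replicate 1. Fibrillar medians ran from 0.01 to 0.38 on the DOM arrays and from -0.69 to -0.23 on the MEHP arrays, and replicate 1 was the lowest fibrillar array of every group.

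DOM was the compound under which the most collagen genes were called, with 6 higher and 2 lower among 24 tested. MEHP gave 1 called gene and DINCH 4, while BDB and DOS gave none. A gene was called when a probe of it had an adjusted p below 0.05 in limma, with Benjamini-Hochberg adjustment over all tested probes, and a change of more than 1.5-fold. For DOM the 8 called collagens were 33.3% of those tested, beside 20.5% of all genes tested, with 6 called higher (beside 9.9% of all genes) and 2 lower (beside 10.6%). The 4 of 23 called for DINCH were 17.4%, beside 8.26% of all genes, and were 1 higher (4.25% of all genes) and 3 lower (4.02%). For MEHP 1 of 24 was called, lower, which was 4.17%, beside 1.68% of all genes in either direction and 0.552% lower. For BDB and DOS limma called 0 collagen genes and 0% of all genes; unadjusted p-values below 0.05 were reached by 1 of 24 collagen genes with BDB and 3 of 24 with DOS, beside 16.3% and 6.34% of all genes. With MEHP 10 of the 24 collagens were below an unadjusted p of 0.05, with DINCH 10 of 23 and with DOM 12 of 24. Beside these were 18.9%, 30.8% and 47.3% of all genes. A value below 0 was found for 17 of 24 collagens with MEHP and 16 of 23 with DINCH. Values above 0 were found for 17 of 24 with DOM, 11 with BDB and 19 with DOS. The share of all genes on either side of 0 was not counted, so these counts cannot be read as a response. The MEHP and DINCH counts include Col9a1, which passed the filter only through DMSO. A set of 9 genes carried all of the calls, and they are described below by class.

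**Figure D2:**
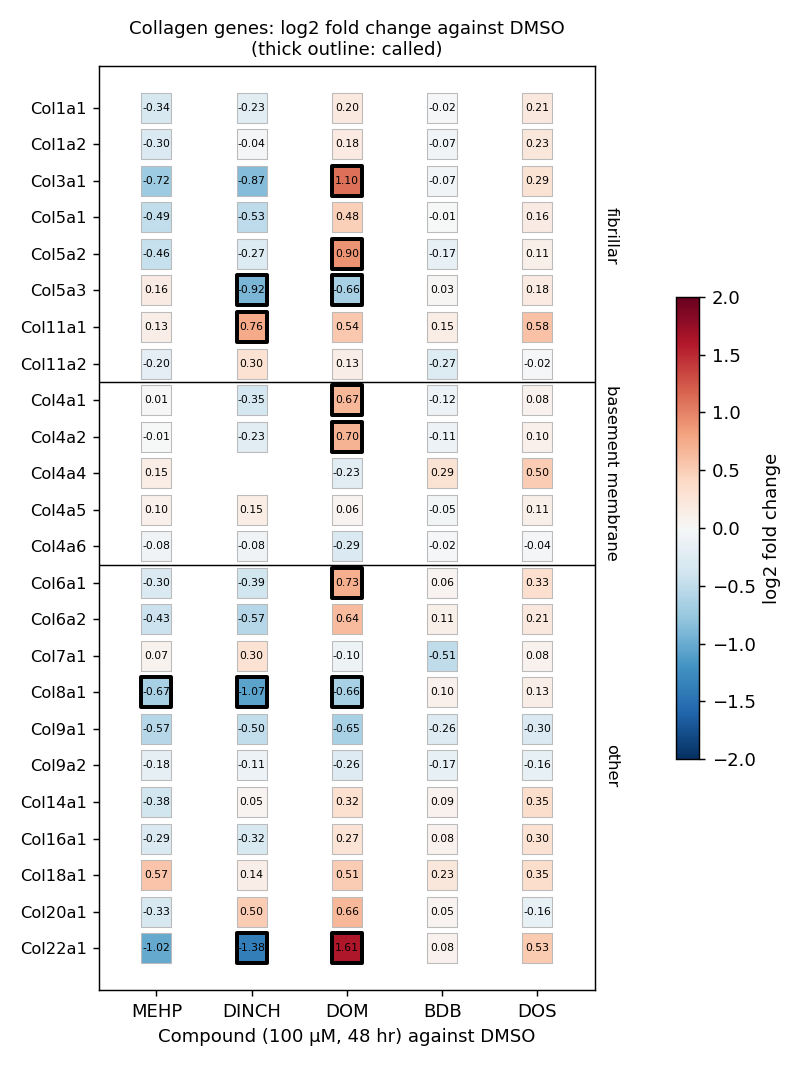
Log2 fold change against DMSO (colour and printed value) of the 24 tested collagen genes (rows, by class) for each compound (columns); a thick outline marks a call and an empty cell a gene not tested. DOM has 6 outlined cells above 0 and 2 below, and Col8a1 is outlined below 0 for MEHP (-0.67), DINCH (-1.07) and DOM (-0.66).

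Among the fibrillar genes 8 of 11 were tested, and their median log2 fold change was 0.34 with DOM, -0.32 with MEHP, -0.25 with DINCH, 0.19 with DOS and -0.04 with BDB. The median over all tested probes lay between -0.08 and -0.01 in these comparisons. Under DOM 2 fibrillar genes rose and 1 fell.

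Col3a1 encodes the only chain of type III collagen, the fibrillar collagen of stretchable tissues. Its levels were 4.38, 5.29, 5.40 and 5.27 on DMSO replicates 1 to 4. They were 5.15, 6.58, 6.72 and 6.27 with DOM, 3.81, 4.52, 4.54 and 4.57 with MEHP, and 3.66, 4.18, 4.59 and 4.43 with DINCH. For Col3a1, 3 of the 4 DOM arrays lay above every DMSO array, and the DOM array that did not was replicate 1, where DMSO was also at its lowest. Col3a1 rose with DOM by 1.10 log2 units (SE 0.35, limma adjusted p = 0.0427). Between arrays of the same number the difference for DOM was 0.77 to 1.32. Leaving out any array other than DOM replicate 1 lost the call (0.86 without DMSO replicate 1), but without replicate 1 of both groups Col3a1 was higher by 1.20 (limma adjusted p = 0.00283). With DINCH the value was -0.87 (adjusted p = 0.0661), and it was called lower with the replicate number as a block (adjusted p = 0.00895) and without replicate 1 of both groups (-0.92, adjusted p = 0.0234). With MEHP it was -0.72 (adjusted p = 0.199), and without replicate 1 of both groups it was called at -0.78 (adjusted p = 0.0259).

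**Figure D3:**
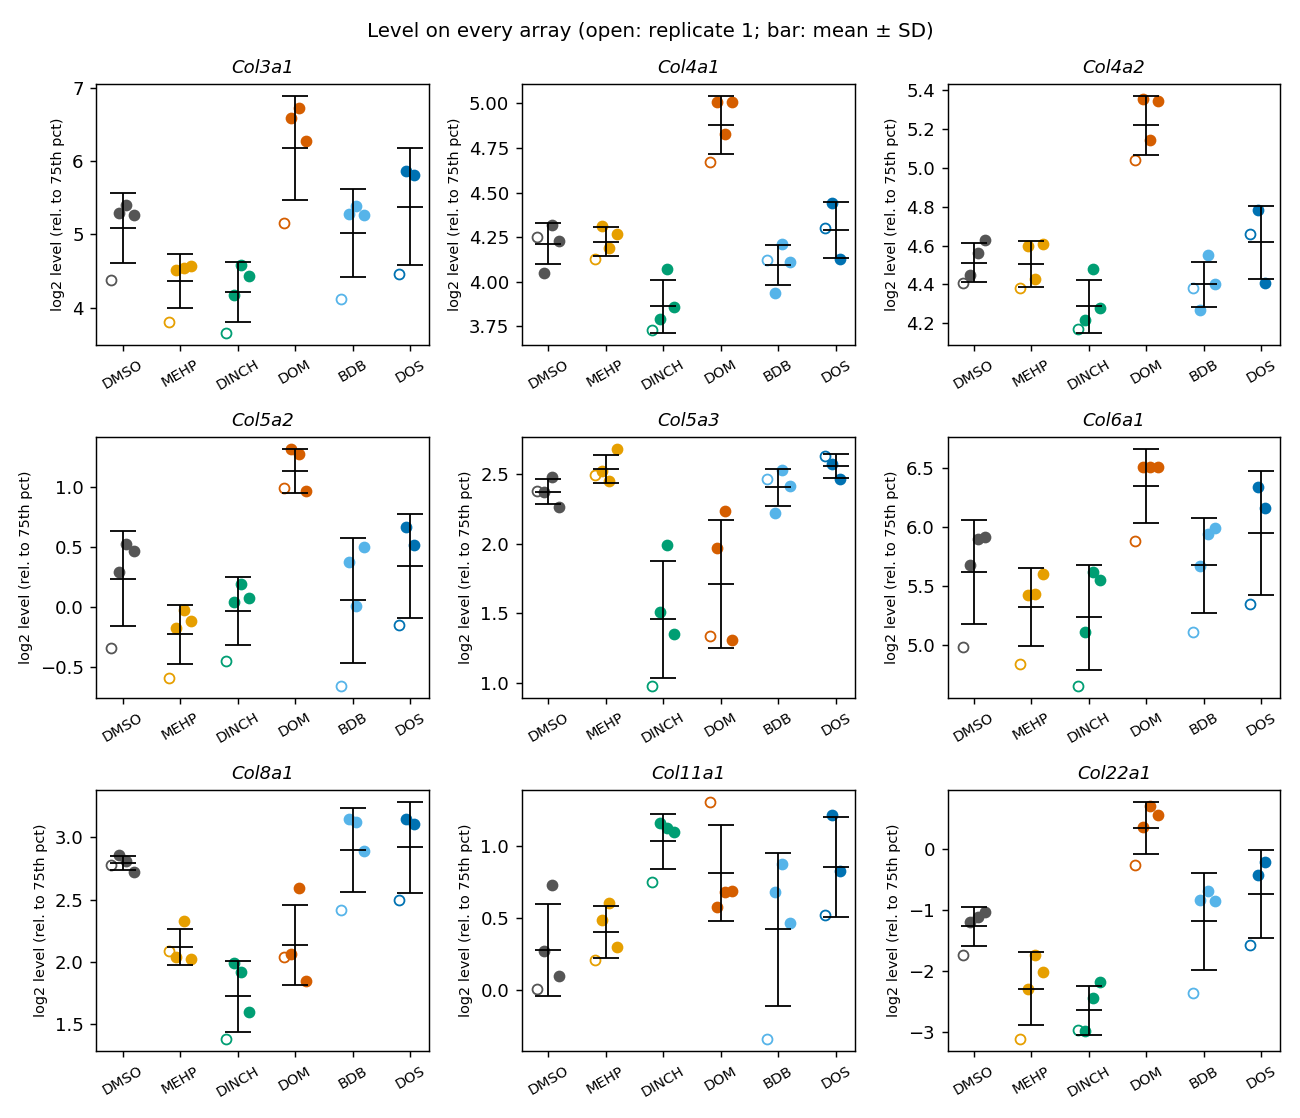
Level of the 9 called collagen genes (vertical axes, log2 relative to the array's 75th percentile) on each array by group; open circles are replicate 1 and bars show the mean and SD. DOM arrays of Col4a1, Col4a2, Col5a2 and Col22a1 lie above all DMSO arrays, and Col8a1 lies below all DMSO arrays with MEHP, DINCH and DOM.

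Col5a2, whose chain joins the type V fibrils that set the diameter of larger fibrils, lies next to Col3a1 in the genome with 0 protein-coding genes between them in the RefSeq table. Its levels were -0.34, 0.29, 0.52 and 0.46 with DMSO and 0.99, 1.31, 1.27 and 0.96 with DOM. All DOM arrays thus lay above all DMSO arrays. Col5a2 rose by 0.90 (SE 0.19, limma adjusted p = 0.00732), and the call held without any single array (0.71 to 1.00). With MEHP and DINCH the values were -0.46 and -0.27, neither of them called.

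Col5a3, a less common chain of type V, went the other way. Its levels were 2.38, 2.37, 2.48 and 2.26 with DMSO, 1.34, 1.97, 2.23 and 1.31 with DOM, and 0.98, 1.51, 1.99 and 1.35 with DINCH. Every DOM and DINCH array lay below every DMSO array, while replicate 3 was the closest to DMSO under both compounds. Col5a3 fell by 0.92 with DINCH (SE 0.19, limma adjusted p = 0.0192) and by 0.66 with DOM (SE 0.20, limma adjusted p = 0.0356). The DOM call was lost in 6 of 8 fits that left out 1 array (all but those without DOM replicate 2 or 3), with a value of -0.53 without DOM replicate 4. The DINCH call was lost without DMSO replicate 3 or DINCH replicate 4 (-0.88 each). Without replicate 1 of both groups the values were -0.76 for DINCH (adjusted p = 0.0675) and -0.54 for DOM (adjusted p = 0.134). With MEHP the levels were 2.49, 2.52, 2.45 and 2.68, and the difference was 0.16 (adjusted p = 0.401).

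Col11a1 encodes a chain of type XI, a minor fibrillar collagen found inside thicker fibrils. It rose with DINCH by 0.76 (SE 0.17, limma adjusted p = 0.0237), from 0.01, 0.27, 0.73 and 0.10 on the DMSO arrays to 0.75, 1.16, 1.13 and 1.10. The lowest DINCH array (0.75) lay just above the highest DMSO array (0.73), and the call was lost in 6 of 8 fits that left out 1 array, among them that without DMSO replicate 1 (0.67). It was also lost without replicate 1 of both groups (0.77, limma adjusted p = 0.0574). The same gene had values of 0.54 with DOM (adjusted p = 0.0712) and 0.58 with DOS (adjusted p = 0.624).

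The chains of type I collagen, the most abundant collagen of connective tissue, were not called for any compound. Col1a1 had values of 0.20 with DOM, -0.34 with MEHP and -0.23 with DINCH, and Col1a2 had 0.18, -0.30 and -0.04. For Col1a1 the 95% interval of the DOM difference was -0.14 to 0.54. The remaining type V chain, Col5a1, had 0.48 with DOM, -0.49 with MEHP and -0.53 with DINCH (adjusted p = 0.138, 0.216 and 0.134). Col2a1, Col24a1 and Col27a1 were well above background on 0 of 23 arrays and were not tested.

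Of the 6 basement membrane genes 5 were tested, and only the pair Col4a1 and Col4a2 was called, both with DOM. These genes encode the chains of the type IV network present in nearly all basement membranes. They lie head to head on mouse chromosome 8. The start sites of the RefSeq promoter table (GRCm38.p6) are chr8:11312826 on the minus strand for Col4a1 and chr8:11312805 on the plus strand for Col4a2. These are 21 bases apart, and by these positions the 5′ ends of the genes overlap and leave no gap. The Col4a1 levels were 4.25, 4.05, 4.32 and 4.23 with DMSO and 4.67, 5.01, 4.83 and 5.01 with DOM. Those of Col4a2 were 4.41, 4.45, 4.56 and 4.63 with DMSO and 5.04, 5.35, 5.14 and 5.34 with DOM. For both genes every DOM array lay above every DMSO array. Col4a1 rose by 0.67 (SE 0.11, limma adjusted p = 0.00251) and Col4a2 by 0.70 (SE 0.11, limma adjusted p = 0.00166). Both calls held without any single array. Within each slide, where no test was made, the mean differences were 0.59 to 0.77 for Col4a1 and 0.63 to 0.78 for Col4a2.

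With MEHP the values were 0.01 for Col4a1 (95% interval -0.19 to 0.20) and -0.01 for Col4a2 (-0.21 to 0.20). With DINCH they were -0.35 (adjusted p = 0.0729) and -0.23 (adjusted p = 0.21). The other tested type IV genes encode chains of more restricted basement membranes, and under DOM their values were 0.06 for Col4a5, -0.23 for Col4a4 and -0.29 for Col4a6. A second, dimmer probe of Col4a6 gave 0.38 with DOM, so the probes of that gene disagreed in sign, and neither was called. The class median was accordingly 0.06 with DOM, and it was 0.01 with MEHP, -0.05 with BDB and 0.10 with DOS. With DINCH it was -0.15 over 4 genes only, because Col4a4 did not pass the filter in that comparison. Col4a3 was well above background on 0 of 23 arrays.

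Among the 25 other genes 11 were tested, and Col6a1, Col8a1 and Col22a1 were called. The median of the 11 was 0.32 with DOM, -0.33 with MEHP, -0.32 with DINCH, 0.21 with DOS and 0.08 with BDB.

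Col22a1 belongs to the collagens that associate with fibrils and is known from junctions of muscle with tendon. Its levels were -1.73, -1.19, -1.11 and -1.02 with DMSO and -0.26, 0.37, 0.72 and 0.57 with DOM. They were -2.96, -2.98, -2.43 and -2.17 with DINCH and -3.11, -2.28, -1.73 and -2.01 with MEHP. DOM arrays lay above and DINCH arrays below all DMSO arrays, and 1 MEHP array, replicate 3, reached the lowest DMSO array. Col22a1 rose by 1.61 with DOM (SE 0.23, limma adjusted p = 0.00126), a 3.06-fold change and the largest of any collagen in the comparisons with DMSO. It fell by 1.38 with DINCH (SE 0.22, limma adjusted p = 0.00813). Both calls held without any single array, although normexp background correction reduced the DINCH value to -0.66. With MEHP the value was -1.02 (adjusted p = 0.115), and with DOS it was 0.53 (adjusted p = 0.808).

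Col6a1 encodes a chain of the beaded filaments of type VI collagen that surround many cells. Its levels were 4.98, 5.68, 5.90 and 5.92 with DMSO and 5.88, 6.51, 6.51 and 6.51 with DOM. On 3 DOM arrays Col6a1 was above every DMSO array, and on DOM replicate 1 it was not. It rose by 0.73 (SE 0.23, limma adjusted p = 0.0402), and by 0.59 to 0.90 between arrays of the same number. The call was lost in 5 of 8 fits that left out 1 array (DMSO replicate 1 or 2, or DOM replicate 2, 3 or 4), with a value of 0.52 without DMSO replicate 1, but without replicate 1 of both groups it was 0.68 (adjusted p = 0.00678). Its neighbour Col6a2, for another chain of the same filament, had a value of 0.64 (adjusted p = 0.136) and was called without replicate 1 of both groups (0.60, adjusted p = 0.032).

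Col8a1 encodes a short-chain collagen that forms lattices under endothelial layers and is made by vascular smooth muscle. It was called lower with all 3 of MEHP, DINCH and DOM. The DMSO arrays were close together at 2.78, 2.86, 2.81 and 2.72. Levels were 2.09, 2.04, 2.33 and 2.02 with MEHP, 1.38, 1.99, 1.92 and 1.60 with DINCH, and 2.04, 2.06, 2.59 and 1.85 with DOM. No array of these 3 groups overlapped the DMSO arrays. Col8a1 fell by 0.67 with MEHP (SE 0.09, limma adjusted p = 0.0113), by 1.07 with DINCH (SE 0.14, limma adjusted p = 0.00456) and by 0.66 with DOM (SE 0.15, limma adjusted p = 0.0105). The DINCH call held without any single array. Without MEHP replicate 2 the MEHP value was -0.65 and no longer called, and without DOM replicate 4 the DOM value was -0.56, less than 1.5-fold. Without replicate 1 of both groups it was -0.67 for MEHP (adjusted p = 0.0554), -0.96 for DINCH (adjusted p = 0.0225) and -0.63 for DOM (adjusted p = 0.0525). The BDB and DOS levels overlapped those of DMSO, with differences of 0.10 (95% interval -0.25 to 0.45) and 0.13 (-0.25 to 0.50).

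Sequence before the start sites of Col3a1, which rose with DOM, and of Col8a1, which fell with MEHP, DINCH and DOM, is shown as an example of a called gene for each direction. Each run is the 250 bases before the start in the RefSeq promoter table (GRCm38.p6), 5′ to 3′ on the strand of the gene, at chr1:45311288-45311537 (plus strand) for Col3a1 and chr16:57754738-57754987 (minus strand) for Col8a1. Capitals mark a TATA box (TATAAA) or a GC box (GGGCGG) on either strand.
Col3a1: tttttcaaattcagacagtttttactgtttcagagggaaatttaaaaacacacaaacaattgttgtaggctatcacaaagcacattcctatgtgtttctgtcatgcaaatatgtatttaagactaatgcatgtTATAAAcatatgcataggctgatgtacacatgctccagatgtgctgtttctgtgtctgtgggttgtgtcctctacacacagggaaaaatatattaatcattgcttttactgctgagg
Col8a1: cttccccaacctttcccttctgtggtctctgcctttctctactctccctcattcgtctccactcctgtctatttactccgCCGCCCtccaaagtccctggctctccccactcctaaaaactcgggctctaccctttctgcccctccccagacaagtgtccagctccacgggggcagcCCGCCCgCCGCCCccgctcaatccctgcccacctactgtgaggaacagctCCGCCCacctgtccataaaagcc
The Col3a1 run held 1 TATAAA, 117 bases before the start, and 0 GC boxes, whereas the Col8a1 run held 4 GC boxes, all on the opposite strand as CCGCCC, and 0 TATA boxes. CCAAT was in neither run on either strand. Of the 32851 promoters of the table, 12.4% held TATAAA, 32.7% GGGCGG and 33.8% CCAAT in the same 250 bases. These matches are letters only and were not tied to the expression values.

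Of the other tested genes, Col18a1, whose chain carries the fragment endostatin and lies in basement membranes, passed the adjusted p but not the fold with MEHP (0.57, SE 0.10, limma adjusted p = 0.0246) and DOM (0.51, SE 0.12, limma adjusted p = 0.00997). Col7a1, the anchoring fibril collagen of skin, had the smallest adjusted p of any collagen with BDB (-0.51, limma adjusted p = 0.1). Col20a1, of the fibril-associated group, had 0.66 with DOM (adjusted p = 0.075). Col9a1, also fibril-associated and known from cartilage, had values of -0.65 to -0.26 against the shared DMSO arrays and was called for no compound. It entered each of these comparisons through the DMSO group alone. Its signal cleared background on 3 MEHP, 2 DINCH, 2 DOM, 3 BDB and 1 DOS arrays. A gene selected by its DMSO signal tends to values below 0, so their sign cannot be read as a response. The medians of this class against DMSO include Col9a1. Among the 14 untested genes of this class 10 were well above background on 0 of 23 arrays, and the others on 1 (Col6a6), 2 (Col10a1 and Col23a1) and 14 (Col25a1). In all, 18 of the 42 collagen genes did not pass the filter in any comparison with DMSO, and nothing can be said of their change.

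The compounds were also compared directly in 4 pairs: DOM with DOS, DOM with MEHP, DOM with DINCH and DINCH with MEHP. These pairs share arrays with each other. A call again rests on the p adjusted within the pair, and the p-values printed for the pairs are adjusted over the probes of all 4 pairs together. DOM and DOS are both dioctyl diesters of a 4-carbon diacid and differ by the double bond of the maleate, and both lay in the slide rows of DMSO.

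DOM differed from DOS in 5 of 23 tested collagens (21.7%, beside 15.2% of all genes), 3 higher (beside 7.15%) and 2 lower (beside 8.06%). Col4a1 was higher by 0.59 (SE 0.13, limma adjusted p = 0.0138), Col4a2 by 0.60 (SE 0.14, limma adjusted p = 0.0151) and Col5a2 by 0.79 (SE 0.20, limma adjusted p = 0.0245). DOS arrays of Col4a1 were at 4.30, 4.44 and 4.13, below all 4 DOM arrays. Lower with DOM were Col5a3 (-0.84, limma adjusted p = 0.0318) and Col8a1 (-0.79, limma adjusted p = 0.033). Col22a1 (1.08, adjusted p = 0.056) and Col20a1 (0.82, adjusted p = 0.0496, and 0.0538 within the pair) were not called. For Col3a1 and Col6a1 the differences were 0.80 (95% interval -0.22 to 1.82) and 0.40 (-0.19 to 0.99), so neither a difference nor its absence was shown. Arrays of the same number deviated together in this pair (correlations 0.10 to 0.40), which the calls above ignored. With the replicate number as a block 6 genes were called. Col4a1 (0.55, limma adjusted p = 0.0539 within this pair) and Col4a2 (0.56, 0.0595) were then lost, and Col3a1 (0.67), Col22a1 (1.07) and Col4a4 (-0.92) were gained. Without replicate 1 of both groups 2 were called, Col4a1 (0.66) and Col22a1 (0.87), and without DOS replicate 4 there were 0, without DOS replicate 1, DOM replicate 2 or DOM replicate 4 only 1.

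**Figure D4:**
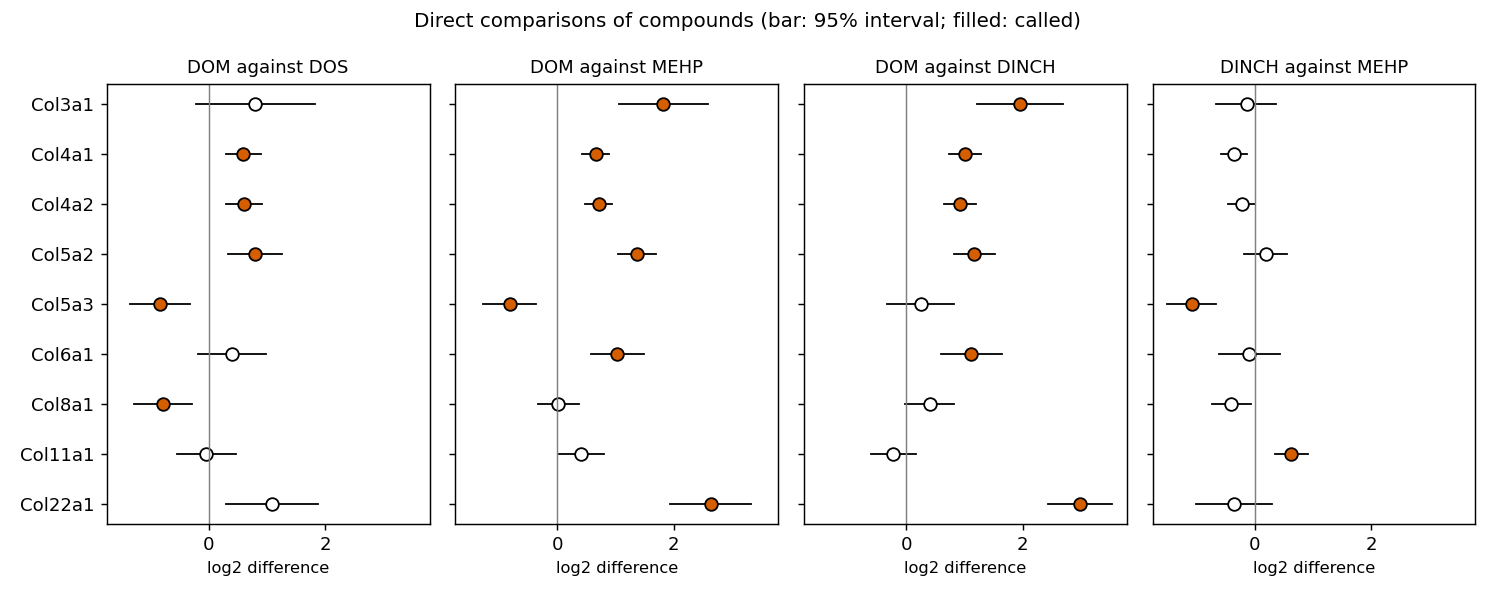
Log2 difference (horizontal axes, first compound minus second) of the 9 genes called against DMSO in the 4 direct comparisons; bars are 95% intervals and filled points were called. Against MEHP and DINCH the DOM difference of Col22a1 was 2.63 and 2.99, and the intervals of Col3a1, Col4a1, Col4a2, Col5a2 and Col6a1 lay above 0 in both.

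Against MEHP, 11 of 23 collagens were called (47.8%, beside 19.5% of all genes), 10 of them higher with DOM (beside 9.59%) and 1 lower (beside 9.9%). Col22a1 was higher by 2.63 (SE 0.31, limma adjusted p = 0.000689), Col3a1 by 1.82 (SE 0.33, limma adjusted p = 0.00554) and Col5a2 by 1.36 (SE 0.14, limma adjusted p = 0.000417). For Col22a1 and Col3a1 no DOM array overlapped a MEHP array. Col6a2 (1.07), Col6a1 (1.03), Col5a1 (0.97), Col4a2 (0.71) and Col4a1 (0.66) were also called, as were Col20a1 (0.99, and 1.43 on a second probe) and 1 of 3 probes of Col16a1 (0.67), whose brightest probe gave 0.55. The second probe of Col20a1 passed the filter only through DOM. Col5a3 was the only gene called lower with DOM (-0.82). Col8a1, called lower against DMSO for both compounds, differed by 0.01 between them (95% interval -0.34 to 0.37). The type I chains Col1a1 and Col1a2 differed by 0.54 and 0.49, with limma adjusted p = 0.0174 and 0.0183 but less than 1.5-fold. Blocking on the replicate number added Col14a1 (0.70) and removed none. Without replicate 1 of both groups Col14a1 was added (0.76) and Col5a3 was lost (-0.71, limma adjusted p = 0.0564 within the pair).

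Against DINCH, 9 of 23 were called (39.1%, beside 23.3% of all genes), all of them higher with DOM (beside 11.8%). Col22a1 led with 2.99 (SE 0.25, limma adjusted p = 0.00013), followed by Col3a1 with 1.96, Col6a2 with 1.21, Col5a2 with 1.17, Col6a1 with 1.12, Col4a1 with 1.02, Col5a1 with 1.00 and Col4a2 with 0.93. The ninth was Col16a1 (0.59, and 0.69 on a second probe). Col5a3 (0.25, 95% interval -0.32 to 0.83) and Col11a1 (-0.22, -0.61 to 0.17) were not called.

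DINCH and MEHP differed in 3 of 23 collagens (13%, beside 2.4% of all genes), 2 higher with DINCH (beside 1.18%) and 1 lower (beside 1.22%). Col5a3 was lower with DINCH (-1.08, SE 0.19, limma adjusted p = 0.00361), with every DINCH array below every MEHP array. Col11a1 was higher by 0.63 (SE 0.13, limma adjusted p = 0.00761). Col20a1 was called only on its dimmer probe (1.30), which passed the filter only through DINCH, the group where it was higher. Its brighter probe gave 0.83 and was not called (limma adjusted p = 0.0647 within the pair). The counts of this pair include Col20a1. Without replicate 1 of both groups, or without MEHP replicate 2, 0 genes were called in this pair, and leaving out MEHP replicate 1, 3 or 4 or DINCH replicate 2 or 4 left 1. For Col3a1 the difference was -0.14 (95% interval -0.66 to 0.37) and for Col22a1 -0.35 (-1.01 to 0.30).

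Chains need modification, folding, export, trimming and cross-linking before they form fibres, and 41 of 42 listed genes of these steps and of collagen receptors were on the array. With DOM 7 of 34 tested were called (20.6%, beside the 20.5% of all genes), 5 higher and 2 lower. The 4 with the largest change were Adamts3, Pcolce2, Loxl4 and P4ha3. Adamts3, a procollagen N-propeptidase, rose by 2.43 (SE 0.44, limma adjusted p = 0.00349) and was well above background on 1 of 4 DMSO arrays. It thus passed the filter only through DOM, the group where it was high, which favours a value above 0. The 5 genes called higher include Adamts3. Pcolce2, an enhancer of C-propeptide removal, fell by 2.04 (SE 0.29, limma adjusted p = 0.00122), and the cross-linking lysyl oxidase gene Loxl4 fell by 1.05 (SE 0.08, limma adjusted p = 0.000202). The prolyl hydroxylase subunit gene P4ha3 rose by 1.03 (SE 0.18, limma adjusted p = 0.00275). With DINCH 1 of 33 was called (3.03%, beside 8.26% of all genes), Loxl2 (-0.63, limma adjusted p = 0.0405). With MEHP, BDB and DOS limma called 0 of 33. Unadjusted p-values below 0.05 were reached by 6, 4 and 2 of these 33 genes, beside 18.9%, 16.3% and 6.34% of all genes. The 7 chaperone, glycosylation and export genes tested held 0 calls with any compound. Of all genes, 20.5% were called with DOM, 8.26% with DINCH and 1.68% with MEHP. An unadjusted limma p below 0.05 was reached by 1 of the 7 each with DINCH, DOM and BDB, beside 30.8%, 47.3% and 16.3% of all genes.

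Type IV collagen is assembled with laminins, nidogens and proteoglycans, and 12 of 17 listed genes were tested. Nid2, which links laminin to type IV collagen, rose with DINCH (0.81, SE 0.19, limma adjusted p = 0.0286). With DOM, under which Col4a1 and Col4a2 rose, 1 of 12 was called (8.33%, beside 20.5% of all genes), the proteoglycan gene Agrn (0.71, SE 0.14, limma adjusted p = 0.0053), and with BDB and DOS 0 of 12.

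Markers of collagen-making cell types were read beside these results. Of 4 fibroblast markers, Pdgfra was called higher with DOM (0.86) and Dcn lower with MEHP (-1.12), while Lum was well above background on 0 arrays and Thy1 on 3. The summed relative intensity of the other 3, where 1 is the array's 75th percentile, was 12.3 to 21.4 on the DMSO arrays, 7.83 to 18.6 with DOM, 5.93 to 9.51 with MEHP and 9.93 to 12.6 with DINCH. Of 5 peritubular myoid markers Cnn1 was called lower with DOM (-1.21), Myh11 was well above background on 0 arrays, and the summed intensity of 4 was 116 to 149 with DMSO, 118 to 158 with DOM and 203 to 251 with DOS. It was 114 to 134 with MEHP, 141 to 156 with DINCH and 140 to 181 with BDB. The sums were not tested, and with DOS 0 of these markers were called (Acta2 0.71, Tagln 0.71 and Cnn1 0.81). Among the 9 Sertoli cell markers well above background on all 4 DMSO arrays, DOM had 3 calls (beside 20.5% of all genes). They were Inhbb at 1.61, Inha at 1.05 and Sox9 at -0.92. DINCH had 2 calls among these 9 (beside 8.26% of all genes), Dhh at 1.09 and Inha at 0.64. The summed intensity of 12 Sertoli cell markers was 14.6 to 28.5 with DMSO, 43.7 to 69.5 with DOM and 14.6 to 20.1 with DINCH. The part of these markers in the collagen results was not tested.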

How the data were processed

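Per the labels, Cy3-labelled RNA was run on 1-colour Agilent mouse arrays, 1 culture an array. The authors read them with Feature Extraction 11.5.1.1, and the deposited intensity values are linear, with background subtracted and no scaling across arrays. A further deposited table gives log2 values that the authors had shifted to the 75th percentile and centred on probe medians; it served as an alternative, and each of its columns correlated at 0.9996 or more with its own array and at 0.407 or less with any other.

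Here the intensities (floor 1) were divided by the 75th percentile of the non-control spots of the array and logged (log2), after removal of outlier spots and averaging of repeated spots. Levels of different probes cannot be compared. The filter asked that in at least 1 of the compared groups all arrays be well above background and not under the array's 20th percentile. Tests were made with limma 3.58.1 (R 4.3.3, package data.table at 1.17.8) on the arrays of the compared groups only, with Benjamini-Hochberg adjustment over all tested probes. Each gene is represented by the brightest of its tested probes, and it counted once when any probe was called. Intervals are 95% intervals of the fit. Called genes are given on every array, uncalled ones by counts and up to 4 examples a class, and partner genes by up to 4 called examples a list. Probes were named through RefSeq accessions. The array was designed on another build than the promoter table, so positions are those of that table. The members, classes and lists were chosen with earlier results of these data known. The methods give 4 biological replicates a group, and the authors excluded 1 DOS array.

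Groups share replicate numbers. For DINCH, BDB and DOS against DMSO, every pair of arrays with the same number deviated together from the group means (correlations 0.17 to 0.50, 0.25 to 0.43 and 0.20 to 0.45). The same held for DOM against DOS (0.10 to 0.40) and DOM against MEHP (0.19 to 0.61). This pairing was read from the values. The main fits ignored it, so their p-values are those of unpaired groups, and the replicate block is given as an alternative. Alternatives were quantile normalization, normexp background correction (offset 50), no filter, detection on 1 array, a block for the slide or for the replicate number, 1 fit of all groups, the authors' values, outlier spots kept and each array left out. The steps were tested on simulated data. Figures were drawn in Python with matplotlib. qPCR and viability data were not analysed here, and 1 gene of the basement membrane list is not reported here.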

Additional observations from a re-analysis of the deposited data

Results flagged for a closer look

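In 45 groups of 4 arrays (the 9 called collagen genes in 5 groups), 1 array lay farther from the others than 95% of such groups would allow in 7 groups, where chance gives about 2.25, or 1 in 20. All 7 arrays were replicate 1 of their group. Col3a1 was low on DMSO replicate 1 (4.38, the others 5.27 to 5.40), on MEHP replicate 1 (3.81, the others 4.52 to 4.57) and on BDB replicate 1 (4.12, the others 5.27 to 5.39). Col6a1 was low on DOM replicate 1 (5.88, the others all 6.51). Col22a1 was low on BDB replicate 1 (-2.36, the others -0.85 to -0.68) and Col11a1 on DINCH replicate 1 (0.75, the others 1.10 to 1.16). Col11a1 was the exception in direction, being high on DOM replicate 1 (1.31, the others 0.58 to 0.69). What sets these arrays apart was not tested.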

How the results depend on the processing

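No called fold change turned its direction in any setting, and 4 class medians, which carry no test, crossed 0 without a filter. Without a filter on dim probes, where more probes are tested, the collagens called were 0 for MEHP, 0 for DINCH, 4 for DOM, 0 for DOM against DOS, 7 for DOM against MEHP and 0 for DINCH against MEHP, and with detection on 1 array 2 for DINCH, 5 for DOM, 2 for DOM against DOS and 0 for DINCH against MEHP. DOM against DOS gave 8 with all groups in 1 fit, and DINCH against MEHP gave 1 with normexp. With the slide as a block MEHP gave 3. With the replicate number as a block MEHP gave 3 (Col3a1 and Col22a1 added). DOM gave 11 (Col6a2, Col20a1 and Col9a1 added, the last of which passed the filter only through DMSO). Whether the numbers pair the arrays in these comparisons stays undecided. The lowest correlation between arrays of the same number was -0.14 for MEHP and 0.04 for DOM. Yet 6 of 8 and 5 of 8 arrays correlated best with their own number. Beyond these added calls and the calls named beside the results, the block changed only Col5a3 for DINCH against MEHP, which was lost (2 called). With replicate 1 of both groups left out, an alternative chosen after seeing the data, DOM against DOS gave 2 and DINCH against MEHP 0. Single arrays left out moved the count of called collagens between 0 and 2 with MEHP (0 without MEHP replicate 2, 2 without DMSO replicate 4), between 2 (without DINCH replicate 4) and 4 with DINCH, and between 4 (without DOM replicate 4) and 9 (without DOM replicate 1) with DOM, where it was 5 without DMSO replicate 1 or 2; in the pairs it ran from 0 to 5 in DOM against DOS and from 0 to 3 in DINCH against MEHP. The basement membrane median for DINCH (-0.15) was -0.08 with detection on 1 array, 0.04 without a filter and -0.20 to -0.06 without single arrays. The median of the other collagens for DINCH (-0.32) was 0.05 without a filter and -0.02 with normexp, and for DOM (0.32) it was -0.06 without a filter. The basement membrane median for DOM (0.06) was -0.04 without a filter or without DOM replicate 1, and -0.05 without replicate 1 of both groups. Medians near 0 for BDB (fibrillar -0.04, other 0.08) and MEHP (basement membrane 0.01) also crossed 0 when single arrays were left out. The cause of these shifts was not tested beyond the number of probes that enter. The share of all genes called is not given for the alternative settings. Changed counts of called collagens therefore cannot be read as particular to collagens. Signal over background left 18 collagen genes without a test, and 3 to 4 arrays a group limit the rest.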
